A study of Mus with 5 samples.

Results

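Described here are 10 genes of the Notch pathway, selected by their Ensembl identifiers, with no threshold on their values: the receptors *Notch1*, *Notch2* and *Notch4*, the ligands *Dll1*, *Dll4* and *Jag1*, and the target genes *Hey1*, *Hey2*, *Heyl* and *Hes1*. All 10 were among the 12857 genes with values.

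Notch signalling passes between touching cells. A ligand of the Delta-like or Jagged family on one cell binds a Notch receptor on its neighbour, the receptor is cut, and its intracellular part enters the nucleus and switches on transcriptional repressors of the Hes and Hey families. In the embryonic heart the receptors and ligands are known mainly from the endocardium and the vessels, where they act in valve formation, trabeculation and artery identity, while *Hey1* and *Hey2* are also transcribed in chamber myocardium.

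RNA-seq was performed on ventricles and valves of E14.5 mouse hearts, with the atria removed, in 3 pools of transgenic hearts (genotype label Nkx2.5CRE;Bmp2) and 2 pools of WT hearts, each of 4 embryos. In the transgenic hearts Cre from the *Nkx2.5* locus, active in the myocardial lineage, removes a stop cassette, and the CAG promoter then drives mouse *Bmp2* and eGFP from the *Rosa26* locus. The transgenic pools therefore carry a Cre allele as well as the transgene. In a cross that the study describes for this line, homozygous Cre females were mated with transgene carriers, so that embryos without the transgene also inherit Cre, but the labels call the control pools WT and do not say which cross they came from. If they lack Cre, the effects of the Cre allele and of the transgene cannot be told apart. A further WT pool was excluded by the authors and was not analysed here.

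Expression is given as CPM, the counts of a gene per 1000000 reads of the scaled library, and the reads behind these values were between 7427905 and 10564780 per pool. Transgenic and WT pools were compared as log2(CPM + 0.5) with limma, and a gene was called when its adjusted p-value (Benjamini-Hochberg, 12857 genes) was at or under 0.05. Fold changes are on this log2 scale, which makes the change of weakly expressed genes look smaller. The limma p-values set each difference against the spread between pools, with the variance of each gene drawn towards a trend over all genes. CPM values are not divided by gene length, so levels were compared between pools and not between genes. Where the difference between 2 genes within a pool is given, it is the change of that difference between genotypes that was compared. Pool values are listed in the order of the pool numbers, WT 1 and 2 and transgenic 1, 2 and 3. *Bmp2* itself was at 14.1 and 10.2 CPM in WT hearts against 23.0, 27.1 and 23.3 CPM in transgenic hearts.

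The receptors and ligands were lower in transgenic hearts and the target genes were divided. *Notch1* and *Dll1* fell and *Hey2* rose, so that 3 of the 10 genes were called. Over all genes, 1.59% were called as lower and 1.22% as higher. In 6 of the 10 genes, the receptors and the ligands, every transgenic pool was below both WT pools, and for *Hey2* and *Hes1* every transgenic pool was above them. Pools separated in this way, with the transgenic pools below, for 18.0% of all genes and, with the transgenic pools above, for 17.7%. *Hey1* and *Heyl* were the 2 genes whose pools overlapped between genotypes. Over all 12857 genes the log2 fold changes had a median of 0.00, while the median was -0.33 for the 3 ligands, -0.34 for the 3 receptors and 0.02 for the 4 targets.

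**Figure D1:**
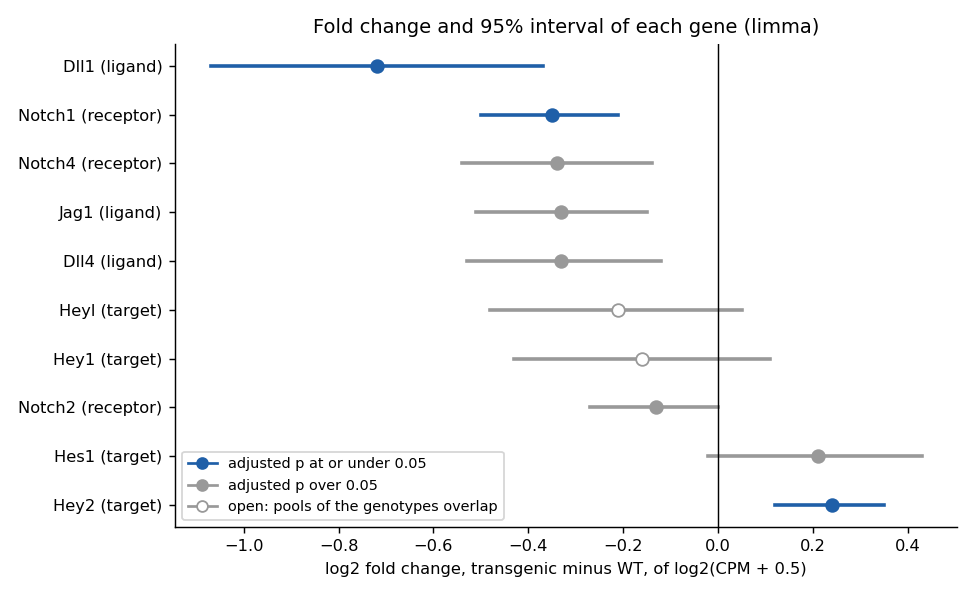
Log2 fold change (transgenic minus WT) of each gene on the log2(CPM + 0.5) scale, with the 95% confidence interval from limma as a bar. Blue marks an adjusted p at or under 0.05 and open circles mark genes whose pools overlapped; the 3 receptors and 3 ligands lie left of 0, from -0.72 (*Dll1*) to -0.13 (*Notch2*), and *Hey2* and *Hes1* lie right of it.

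*Notch1* (ENSMUSG00000026923, chromosome 2 of GRCm38, 26457902 to 26503822) encodes the receptor required in endocardium for cushion formation and trabeculation. It was at 99.1 and 97.3 CPM in WT hearts against 80.3, 70.5 and 79.5 CPM in transgenic hearts. The groups did not overlap, and the highest transgenic pool was 17.0 CPM under the lower WT pool. The average fell to 76.8 ± 5.44 CPM (SD, n = 3) in transgenic hearts against 98.2 ± 1.24 CPM (SD, n = 2) in WT, and the log2 fold change was -0.35 (standard error 0.07, 95% interval -0.50 to -0.21, limma adjusted p = 0.0104). *Notch1* ranked 139 of the 12857 genes by p-value, the foremost of the 10. It was not called without the variance trend (limma adjusted p = 0.19), without WT pool 1 (limma adjusted p = 0.199) or without WT pool 2 (limma adjusted p = 0.152), within 0.00093 to 0.199 over all alternatives.

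*Notch4* (ENSMUSG00000015468, chromosome 17, 34564286 to 34588543) encodes a receptor largely restricted to endothelium. It was at 33.1 and 31.8 CPM in WT hearts against 27.1, 23.6 and 26.0 CPM in transgenic hearts. Every transgenic pool was lower, and the difference was as large as that of *Notch1*, with a log2 fold change of -0.34 (standard error 0.09, 95% interval -0.54 to -0.14). *Notch4* had 208 to 313 reads per pool against 636 to 937 for *Notch1*, and its limma adjusted p of 0.0621 missed the threshold.

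*Notch2* (ENSMUSG00000027878, chromosome 3, 98013538 to 98150367), which encodes a more widely expressed receptor, was at 97.1 and 103 CPM in WT hearts against 94.7, 90.6 and 87.7 CPM in transgenic hearts. The transgenic pools were again all lower, by a gap of 2.37 CPM. Its log2 fold change was -0.13 (standard error 0.06, 95% interval -0.27 to 0.00, limma adjusted p = 0.283). *Notch2* had 701 to 990 reads per pool, more than *Notch1* in 4 of the 5 pools, and the interval of its change allows a decrease of up to 0.27. The summed level of the 3 receptors was 229 and 232 CPM in WT hearts against 202, 185 and 193 CPM in transgenic hearts.

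*Dll1* (ENSMUSG00000014773, chromosome 17, 15367354 to 15376932), a ligand known from arterial endothelium and from somites, had the widest fold change of the 10 genes and the fewest reads. It was at 11.8 and 9.25 CPM in WT hearts against 6.41, 5.69 and 6.38 CPM in transgenic hearts. Only 112 and 69 reads lay behind the WT values and 67, 53 and 51 reads behind the transgenic ones. The transgenic pools lay close together and the WT pools apart, and the groups did not overlap. From counting alone the 95% Poisson interval was 9.75 to 14.2 CPM in WT pool 1 and 7.20 to 11.7 CPM in WT pool 2, against 4.26 to 8.39 CPM over the transgenic pools. *Dll1* fell to an average of 6.16 ± 0.406 CPM (SD, n = 3) against 10.5 ± 1.83 CPM (SD, n = 2) in WT, and its log2 fold change was -0.72 (standard error 0.16, 95% interval -1.07 to -0.37, limma adjusted p = 0.0266). This became -0.55 without WT pool 1 and -0.89 without WT pool 2. *Dll1* was not called without either of these, without transgenic pool 2 (limma adjusted p = 0.0776) or without the variance trend (limma adjusted p = 0.145). DESeq2 gave it no adjusted p. Over the alternatives that kept both WT pools, its adjusted p ran from 0.00292 (edgeR exact test) to 0.145.

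**Figure D2:**
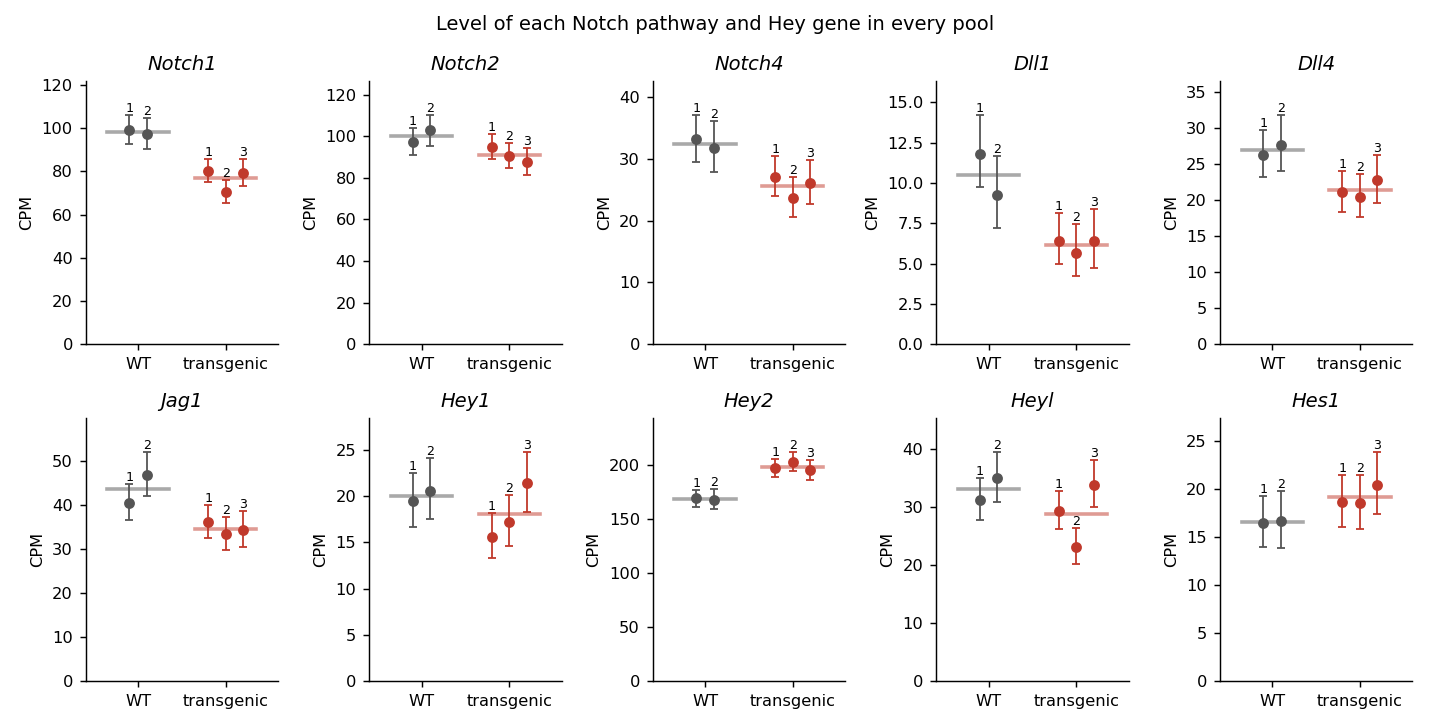
CPM of each of the 10 genes in every pool, with 2 WT pools (grey) and 3 transgenic pools (red) numbered as the labels number them. Error bars are 95% Poisson intervals of the recovered reads, thick lines are group means and every axis starts at 0; *Dll1* is at 5.69 to 6.41 CPM in transgenic and 9.25 to 11.8 CPM in WT pools, while *Hey1* and *Heyl* overlap.

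*Jag1* (ENSMUSG00000027276, chromosome 2, 137081451 to 137116520) encodes the Jagged ligand needed in heart and arteries. It was at 40.6 and 46.9 CPM in WT hearts against 36.1, 33.5 and 34.4 CPM in transgenic hearts. All transgenic pools were lower, and most of the spread was between the WT pools. *Jag1* had a log2 fold change of -0.33 (standard error 0.09, 95% interval -0.51 to -0.15) and a limma adjusted p of 0.0522, just over the threshold. *Jag1* passed it in 3 of 16 alternatives, with adjusted p-values from 0.0415 to 0.426.

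*Dll4* (ENSMUSG00000027314, chromosome 2, 119325784 to 119335666) encodes the ligand of arterial and sprouting endothelium and is used as a coronary artery marker. It was at 26.3 and 27.7 CPM in WT hearts against 21.1, 20.5 and 22.8 CPM in transgenic hearts. Every transgenic pool was below both WT pools, and its spread among pools of either genotype was no more than counting error gives. The log2 fold change of -0.33 (standard error 0.10, 95% interval -0.53 to -0.12) was the same size as that of *Jag1*. *Dll4* was not called (limma adjusted p = 0.0813) and had adjusted p-values of 0.0575 to 0.402 in the 15 alternatives that gave a value. The summed level of the 3 ligands was 78.8 and 83.9 CPM in WT hearts against 63.7, 59.7 and 63.5 CPM in transgenic hearts.

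The unadjusted limma p was under 0.05 for the 3 ligands, *Notch1*, *Notch4* and *Hey2*, which are 6 of the 10 genes, against 17.7% of all genes. Which genes passed near the threshold depended on the test. The exact test of edgeR, applied to reads recovered from the CPM values, called *Notch1*, *Notch4*, *Dll1*, *Jag1* and *Hey2*, or 5 of the 10 genes, and 3.75% of all genes. *Notch1*, *Notch4*, *Dll1* and *Hey2* are also on the list of changed genes that the study drew from these libraries, which is no independent evidence. *Notch4* and *Dll1* lie on chromosome 17 at 7.72 and 11.5 Mb from *Nkx2-5*, the locus that carries Cre in the transgenic pools, and whether chromosome 17 near that locus differs between the genotypes was not tested.

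*Hey2* (ENSMUSG00000019789, chromosome 10, 30832359 to 30842783), a repressor that marks compact myocardium, was the only called gene of the 10 that rose. It was at 169 and 168 CPM in WT hearts against 197, 203 and 195 CPM in transgenic hearts, on 1253 to 2061 reads per pool. The pools of each genotype lay within a few CPM of each other and 26.6 CPM separated the groups. Its log2 fold change was 0.24 (standard error 0.05, 95% interval 0.12 to 0.35, limma adjusted p = 0.0267), the smallest in size of the 3 called genes and near the smallest that was called for any gene, 0.22. When single pools were left out the size stayed at 0.22 to 0.25, but the adjusted p ran from 0.0310 to 0.242, and among these 5 fits *Hey2* was called only in that without transgenic pool 3.

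*Hes1* (ENSMUSG00000022528, chromosome 16, 30065357 to 30067796), a repressor induced by Notch in many tissues, was at 16.4 and 16.6 CPM in WT hearts against 18.6, 18.5 and 20.4 CPM in transgenic hearts. The transgenic pools were all higher, as for *Hey2*. At 0.21, the log2 fold change was nearly that of *Hey2*, but with 124 to 194 reads per pool its standard error was 0.11 and its 95% interval ran from -0.02 to 0.43 (limma adjusted p = 0.332).

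*Hey1* (ENSMUSG00000040289, chromosome 3, 8663359 to 8667038), transcribed in atrial myocardium, endocardium and arterial endothelium, was at 19.5 and 20.6 CPM in WT hearts against 15.6, 17.2 and 21.4 CPM in transgenic hearts. Transgenic pools 1 and 2 were below both WT pools and pool 3 was above them. The transgenic mean was 18.1 ± 2.99 CPM (SD, n = 3) and the WT mean 20.0 ± 0.841 CPM (SD, n = 2), a difference smaller than the spread of the transgenic pools. With a log2 fold change of -0.16 and a standard error of 0.13 (limma adjusted p = 0.551), the 95% interval of -0.43 to 0.11 allows a decrease as large as that of *Notch1* as well as a small increase. The log2 fold change was -0.06 without transgenic pool 1 (limma adjusted p = 0.856) and -0.28 without transgenic pool 3 (limma adjusted p = 0.204).

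*Heyl* (ENSMUSG00000032744, chromosome 4, 123233556 to 123249870), known from vascular smooth muscle, was at 31.2 and 35.0 CPM in WT hearts against 29.4, 23.1 and 33.9 CPM in transgenic hearts. Transgenic pool 2 was the lowest and pool 3 lay between the WT pools. *Heyl* had a log2 fold change of -0.21 (standard error 0.13, 95% interval -0.48 to 0.05, limma adjusted p = 0.397). It was -0.07 without transgenic pool 2, -0.13 without WT pool 2 and -0.34 without transgenic pool 3.

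The targets differed in how much they varied among transgenic pools. The spread was expressed as the variance of the reads over the variance of counting alone, for which counting error gives 1. Among transgenic pools this ratio was 8.99 for *Heyl*, 4.43 for *Hey1* and 3.62 for *Notch1*, and 0.250 to 1.26 for the other 7 genes. Between WT pools it was highest for *Jag1* (3.83) and *Dll1* (2.62). For the genes near or under 1, more reads would be needed to show any spread among pools.

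*Hey2* was also compared with the other targets within each pool, which removes the scaling of the library. The log2 level of *Hey2* minus that of *Hey1* was 3.62, 3.52 and 3.16 in transgenic pools 1, 2 and 3 and 3.08 and 2.99 in WT pools 1 and 2. Every transgenic pool was higher, and the mean difference between genotypes was 0.40. For *Hey2* minus *Heyl* the values were 2.73, 3.11 and 2.51 in transgenic and 2.42 and 2.25 in WT pools, a mean difference of 0.45, which was 0.29 without transgenic pool 2. In both cases the two-sided exact permutation p was 0.2 (0.3 adjusted over the 3 comparisons), and 0.2 is the smallest that 3 pools against 2 can give.

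*Hey2* minus *Hes1* did not separate the genotypes, at 3.37, 3.42 and 3.23 in transgenic and 3.33 and 3.30 in WT pools (difference 0.03, two-sided exact permutation p = 0.8, adjusted 0.8). The sign of that difference changed without transgenic pool 2 (-0.01). Among the receptors, *Notch1* minus *Notch2* was -0.24, -0.36 and -0.14 in transgenic and 0.03 and -0.08 in WT pools, a mean difference of -0.22. Among the ligands, *Dll1* minus *Dll4* was -1.65, -1.76 and -1.76 in transgenic and -1.12 and -1.53 in WT pools, a mean difference of -0.40. The transgenic pools were lower in each of these 2 comparisons (two-sided exact permutation p = 0.2, adjusted 0.35 over 7 comparisons that were added after the values were seen). The difference of *Dll1* minus *Dll4* was -0.19 without WT pool 1 and -0.60 without WT pool 2.

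**Figure D3:**
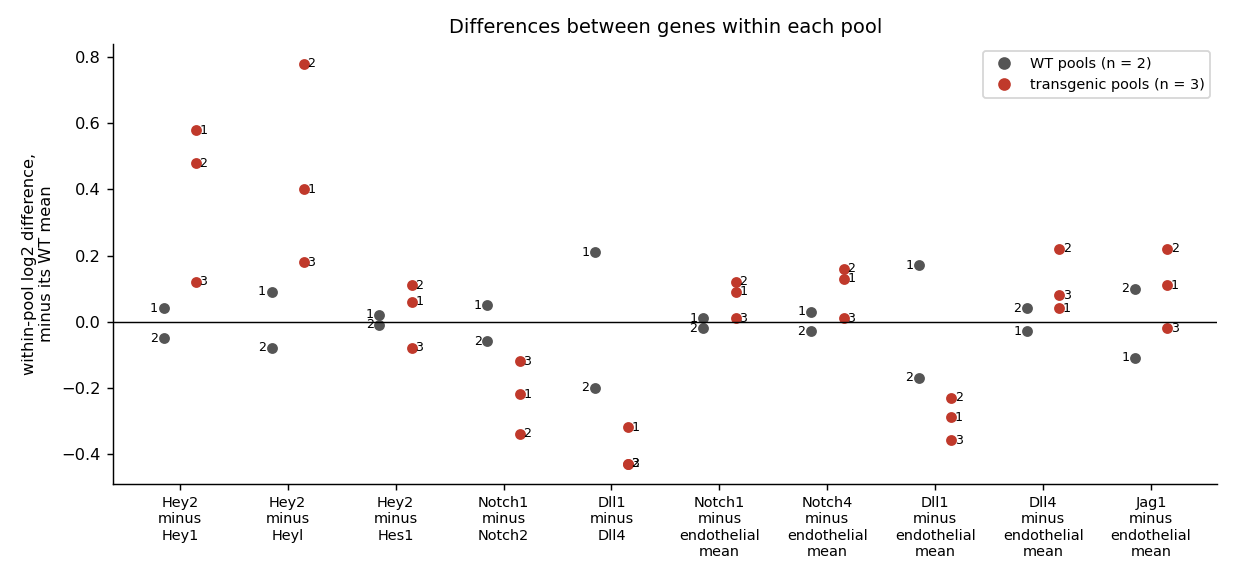
Differences in log2(CPM + 0.5) between pairs of genes within each pool, after the WT mean of each difference was subtracted, for 2 WT pools (grey) and 3 transgenic pools (red), numbered. *Hey2* minus *Hey1* and *Hey2* minus *Heyl* lie above WT in every transgenic pool, *Notch1* minus *Notch2* and *Dll1* minus *Dll4* lie below, and *Hey2* minus *Hes1* overlaps.

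The markers of endothelium and endocardium that could be named were also lower in transgenic hearts. Of 14 markers of endothelium and endocardium, 4 could be named from the identifiers that the study pairs with symbols. They were named because the study lists them as changed in these libraries, so their direction is not independent evidence. *Kdr*, the main VEGF receptor, *Tie1*, an endothelial receptor kinase, and *Plvap*, a protein of endothelial diaphragms, fell by 0.46, 0.31 and 0.72 on the log2 scale (limma adjusted p = 0.00286, 0.0277 and 0.00109). *Cdh5*, the cadherin of endothelial junctions, had a log2 fold change of -0.25 (limma adjusted p = 0.0563). The summed level of the 4 genes was 545, 462 and 548 CPM in transgenic pools 1, 2 and 3 and 668 and 659 CPM in WT pools 1 and 2. Transgenic pool 2 was the lowest transgenic pool for all 4 and for 7 of the 10 Notch pathway and Hey genes. Of the genes described below, it was also the lowest for *Bmp10*, *Gja5*, *Ryr2*, *Myh11*, *Pdgfrb* and *Pdgfra*, but not for *Unc5b*, *Rgs5* or *Tbx18*. The low values of pool 2 were thus not particular to endothelial and Notch genes, and the share over all genes was not computed. In such bulk samples fewer cells of a type and less RNA per cell cannot be told apart.

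Relative to the mean log2 level of these 4 genes in the same pool, *Notch1* stood at -0.58 and -0.61 in WT hearts against -0.50, -0.47 and -0.58 in transgenic hearts. The transgenic mean was then 0.08 higher, and pool 3 lay next to WT pool 1. The corresponding differences were 0.10 for *Notch4*, 0.11 for *Dll4* and 0.11 for *Jag1*, and the pools of the genotypes overlapped for these 3 genes. For *Jag1* the difference was 0.00 without WT pool 1, 0.05 without transgenic pool 2, 0.17 without transgenic pool 3 and 0.21 without WT pool 2, for *Dll4* it was 0.06 without transgenic pool 2 and 0.07 without WT pool 1, and for *Notch1* and *Notch4* it ran from 0.06 to 0.14 over single pools left out. With *Cdh5* alone as the reference, the differences were -0.10 for *Notch1*, -0.09 for *Notch4*, -0.07 for *Dll4* and -0.08 for *Jag1*. The direction thus turned with the reference gene. All 4 reference genes were selected as changed in these libraries and were lower, so the offset of these differences depends on that selection. The tests against them cannot separate the Notch genes from that choice. *Dll1* was lower against both of these references, with differences of -0.29 against the 4 genes and -0.47 against *Cdh5* alone. *Cdh5* had the fold change smallest in size of the 4 (-0.25). *Plvap* had the same log2 fold change as *Dll1* (-0.72), and the difference against *Plvap* alone was not computed. From the 4 genes, the difference of *Dll1* was -0.12 without WT pool 1 and -0.46 without WT pool 2. Two-sided exact permutation tests against the 4 genes gave p = 0.2 for *Notch1* and *Dll1* and p = 0.4 for the other 3 (adjusted 0.35 and 0.4 over the 7 comparisons).

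**Figure D4:**
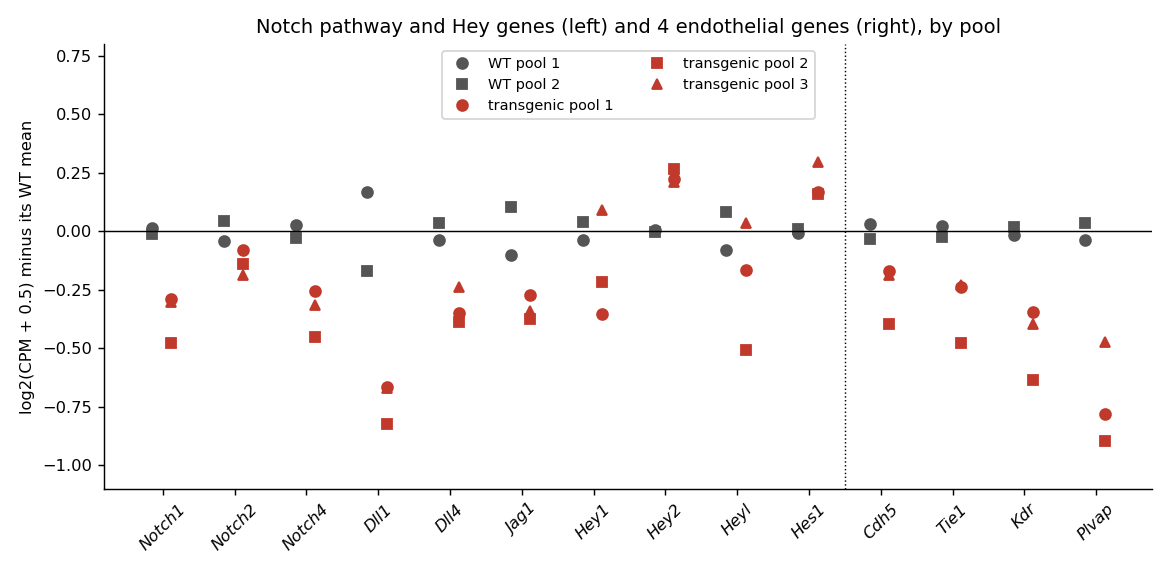
Log2(CPM + 0.5) of each pool minus its WT mean for the 10 Notch pathway and Hey genes (left of the dotted line) and for *Cdh5*, *Tie1*, *Kdr* and *Plvap* (right), with WT pools in grey and transgenic pools in red and a symbol for each pool number. The transgenic pools lie below 0 for the 3 receptors, the 3 ligands and the 4 endothelial genes, and pool 2 is the lowest for the endothelial genes.

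Of 12 genes known downstream of Notch in heart and vessels, 3 could be named, also from the list that the study chose on these samples. *Bmp10*, a growth factor of trabecular myocardium, was at 15.2, 10.7 and 17.4 CPM in transgenic and 33.4 and 32.2 CPM in WT pools and fell (log2 fold change -1.18, limma adjusted p = 0.000626). *Gja5*, the connexin of trabeculae and arteries, fell by 0.55 (limma adjusted p = 0.00494). *Unc5b*, a netrin receptor of arterial and tip cell endothelium, rose from 190 and 180 CPM in WT to 260, 233 and 209 CPM in transgenic pools (log2 fold change 0.34, limma adjusted p = 0.0225). Among these libraries *Unc5b* was thus higher in every transgenic pool while *Dll4*, *Notch1* and *Notch4* were lower in every one.

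Other markers that could be named came from the same list. Among smooth muscle and pericyte markers *Myh11* and *Rgs5* fell by 0.71 and 0.48 (limma adjusted p = 0.0204 and 0.00890), and *Pdgfrb* had a log2 fold change of -0.24 (limma adjusted p = 0.0519). The summed level of these 3 of 7 markers was 138, 138 and 157 CPM in transgenic and 188 and 185 CPM in WT pools. Of 9 markers of epicardium and fibroblasts, *Tbx18* rose by 0.37 and *Pdgfra* fell by 0.34 (limma adjusted p = 0.00476 and 0.00919), with a summed level of 180 to 191 CPM in transgenic and 191 and 197 CPM in WT pools. *Ryr2*, the calcium release channel of cardiomyocytes and the only named one of 11 cardiomyocyte markers, fell by 0.28 (limma adjusted p = 0.0175). It was at 425 to 480 CPM in transgenic and 548 and 556 CPM in WT pools. The levels of few markers were available to check the heart label. The part of these cell types in the values of the Notch genes was not tested.

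The 10 genes kept their direction in all 16 alternative settings. For genes whose pools did not overlap, leaving out a single pool or changing the pseudocount could not reverse it. The setting without a filter repeats the reported fit, since the filter kept all genes. The other filter and the fit without the variance trend leave the fold changes as they were. What changed was which genes passed the threshold in these settings. *Notch1* passed in 13 of them (adjusted p 0.00093 to 0.199) and *Hey2* in 11 (adjusted p 0.00879 to 0.242). *Dll1* passed in 11 of the 15 that gave an adjusted p. *Notch4* passed in 1 of the 15 that gave it a value, and *Jag1* in 3 of 16. *Notch2*, *Dll4*, *Hey1*, *Heyl* and *Hes1* passed in none. Without transgenic pool 2 only *Notch1* was called, and without either WT pool 0 of the 10 were called by limma, in fits that rest on a single WT pool, which is assumed to vary like the transgenic pools.

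**Figure D5:**
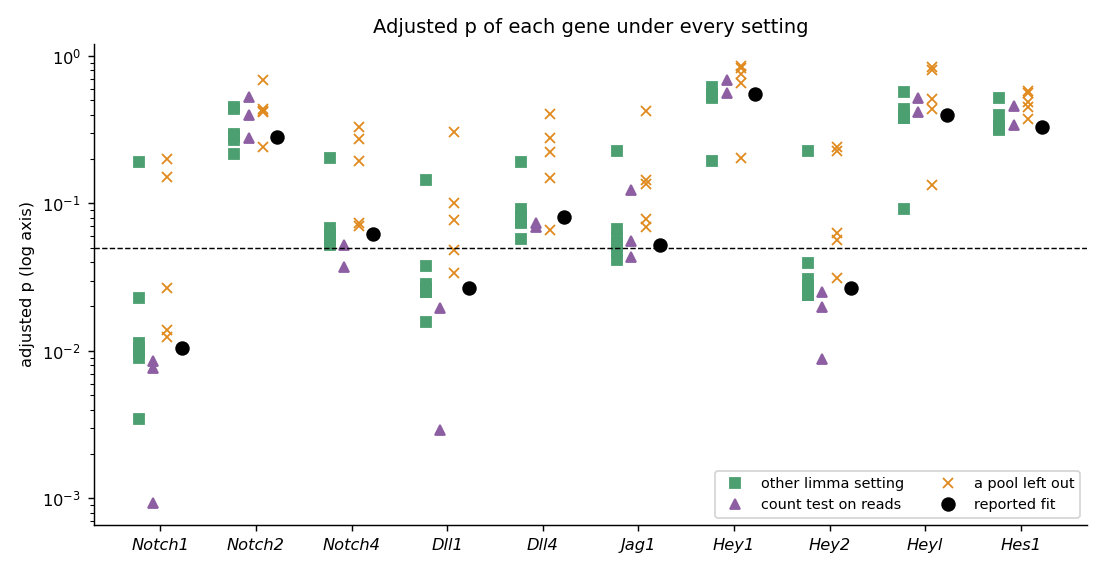
Adjusted p of each of the 10 genes on a log axis, with a dashed line at 0.05, for the reported limma fit (black), other limma settings (green squares), edgeR and DESeq2 tests on the recovered reads (purple triangles) and fits without each pool in turn (orange crosses). *Notch1*, *Dll1* and *Hey2* lie under the line in most settings. *Jag1* lies under it in 3 settings and *Notch4* in 1, the exact test of edgeR. *Notch2*, *Dll4*, *Hey1*, *Heyl* and *Hes1* lie above it throughout.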

How the data were processed

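Single-end RNA-seq libraries were made from pooled RNA of E14.5 hearts. The authors trimmed adaptors with cutadapt, quantified genes with RSEM over GRCm38 and Ensembl, and deposited CPM values for 12857 genes after leaving out genes with low values; 0 columns of the table were unused. Dividing by the worth of 1 read, searched for in each library, turned 100% of the values into whole reads (within 0.05). A count of 0 allows up to 3 reads (0.287 to 0.402 CPM). Intervals from reads cover counting error only, since PCR copies are not told apart.

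Because CPM values are not counts, log2(CPM + 0.5) was compared with limma 3.58.1 in R 4.3.3 (lmFit, eBayes with trend), transgenic against WT, without covariates, for genes with at least 1 CPM in at least 2 libraries (all 12857). In simulated data with 12857 genes limma recovered 81 of 100 genes changed by 0.5 and 100 of 100 changed by 1 on the log2 scale, with 8 false calls. The simulation gave every gene the same small dispersion between pools and changed only genes over 5 CPM. Changes under 0.5 were not simulated, and of the 10 genes only *Dll1* (-0.72) had a larger one. The recovery of changes as small as those of the other genes was therefore not measured. *Heyl*, *Hey1* and *Notch1* varied more than that among transgenic pools, and *Jag1* and *Dll1* did so between WT pools. These counts therefore do not measure how limma performs on such genes, 2 of which were called. The alternatives changed the pseudocount (0.1 or 1), the filter (none, or a mean of at least 5 CPM), the variance trend (none), the scaling (quantiles, or equal totals) or the tool (edgeR 4.0.16 or DESeq2 1.42.0 on recovered reads), added a block for the pool number, or left out single pools. The comparisons with endothelial genes, *Notch1* with *Notch2* and *Dll1* with *Dll4* were added after the values were seen. The genes and lists were chosen with earlier results of these data known. All 10 genes are named, and from other lists each gene that could be named.

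Symbols came from the identifiers that defined the genes and from the study's list of changed genes, which names 405 identifiers, and positions from RefSeq on GRCm38.p6. That table pairs 0 genes with Ensembl identifiers, so the 40 genes of receptor processing, turnover and the nuclear complex, and markers of valve mesenchyme, red cells and leukocytes, were not analysed here, nor were *Notch3*, *Dll3*, *Jag2* and other family members. Promoters and proteins were not used here.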

Additional observations from a re-analysis of the deposited data

How the results depend on the processing

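Of 160 combinations of the 10 genes with 16 alternatives, none changed direction. For genes with separated pools this was fixed in advance when a single pool was left out or the pseudocount was changed. The setting without a filter repeats the reported fit. The other filter and the fit without the variance trend leave the fold changes as they were, so much of this count was fixed in advance. Of the 154 with an adjusted p, 138 stayed on their side of the threshold, 12 lost a call and 4 gained one. The number of the 10 genes called was 3; it was 5 with edgeR's exact test, 0 without the variance trend (where 10 genes in all were called), and 0 to 3 when single pools were left out (1 without transgenic pool 2, 0 without either WT pool). The number of all genes called was 362 (157 higher and 205 lower), with 232 by DESeq2, 43 to 464 without single pools (226 without transgenic pool 2, 45 and 43 without WT pools 1 and 2), and 125 higher and 251 lower with libraries rescaled to the same total. With the pool number as a replicate block 655 genes were called, and the same 3 of the 10. Only the transgenic group had a pool 3, so the fold changes of this fit rest on pools 1 and 2 of each genotype. Pools of the same number shared no deviation (Pearson r across genes of -0.026 and -0.050), and the numbers were not taken to pair the pools. The within-pool differences of *Hey2* from *Hey1* and from *Heyl* kept their sign in all settings run, while *Hey2* minus *Hes1* (0.03) ran from -0.01 (without transgenic pool 2) to 0.09 when single pools were left out. Against *Cdh5* alone the differences of *Notch1*, *Notch4*, *Dll4* and *Jag1* from the endothelial genes were -0.10, -0.09, -0.07 and -0.08 in place of 0.08, 0.10, 0.11 and 0.11. Causes were not tested. DESeq2 gave no adjusted p for 6 of the genes with fewer reads. The level relative to the whole endothelial marker list was not run, since 4 of its 14 genes could be named. *Dll1*, with 51 to 112 reads per pool, had the fewest reads of the 10 genes, and its counting intervals are the widest relative to its level.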
